A study of Mus musculus with 24 samples.

Results

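The genes described here are 8 alpha and beta tubulins of the mouse: the alpha tubulins Tuba1a, Tuba1b and Tuba1c, and the beta tubulins Tubb2a, Tubb2b, Tubb3, Tubb5 and Tubb6. They were chosen by symbol, without use of their values, and are 8 of the 38215 genes in the deposited table. All 8 passed the filter on low values. They were followed in dorsal root ganglia (DRG), the clusters of sensory neuron cell bodies that lie beside the spinal cord and send axons into peripheral nerves such as the sciatic.

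The ganglia came from mice of 3 strains labelled C57, CAST and DBA, some naive and some with a sciatic nerve crushed 5 days earlier, with 4 libraries in each of the 6 groups and 24 libraries in all. The labels name no engineered allele and no drug, and give no age. The series title concerns axon regeneration in CAST/Ei mice, the series design counts further strains that were not analysed here, and it calls the libraries of a group biological quadruplicates. The labels' treatment protocol speaks of a sham operation where the sample labels say naive, and the labels do not settle which was done.

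Alpha and beta tubulin pair into dimers, and the dimers polymerise into microtubules, the tracks and struts of the axon. Vertebrates make each from several genes, called isotypes, whose proteins differ mostly in the acidic tail at the carboxyl end. Tubb3 is widely used as a marker of neurons, Tuba1a is the alpha isotype best known from developing and growing axons, and growing microtubules need fresh dimers. The amount of free tubulin feeds back on the stability of tubulin mRNA while it is being translated, and Ttc5 is the factor that reads the first residues of the new protein.

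The coding sequences are printed first because they set how far reads of the isotypes can be told apart. The stretches below are bases of the coding strand from GENCODE M21 (build GRCm38, the same as mm10), written 5′ to 3′. In the first set, the 30 bases at the start of the coding region, capitals mark the first 4 codons, which encode the residues that the feedback reads.
Tuba1a start: ATGCGTGAGTGCatctccatccatgttggc
Tuba1b start: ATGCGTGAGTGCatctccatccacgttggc
Tuba1c start: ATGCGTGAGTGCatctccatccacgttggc
Tubb2a start: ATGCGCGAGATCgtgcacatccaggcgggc
Tubb2b start: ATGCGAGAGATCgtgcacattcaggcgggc
Tubb3 start: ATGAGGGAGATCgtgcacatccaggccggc
Tubb5 start: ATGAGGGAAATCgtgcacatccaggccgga

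In the second set, the last 60 coding bases of 5 members, which encode the acidic tail, capitals mark the stop codon.
Tuba1c end: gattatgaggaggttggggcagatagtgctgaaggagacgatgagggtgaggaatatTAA
Tubb2a end: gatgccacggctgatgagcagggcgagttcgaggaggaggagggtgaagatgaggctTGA
Tubb2b end: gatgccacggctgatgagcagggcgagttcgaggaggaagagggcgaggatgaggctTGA
Tubb3 end: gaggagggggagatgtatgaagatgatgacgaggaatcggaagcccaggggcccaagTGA
Tubb5 end: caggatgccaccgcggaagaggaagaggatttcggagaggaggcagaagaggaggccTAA

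Tubb2a and Tubb2b differed at 3 of these last 60 bases, and none of the 3 changes the encoded residue, so this stretch of their proteins is the same. Tubb3 differed from the other 4 genes of this set at 32 to 35 bases. Over the whole coding region Tuba1a was 98.3% identical to Tuba1b and 97.1% to Tuba1c, and Tuba1b and Tuba1c were 97.9% identical. Tubb2a and Tubb2b were 96.5% identical. Tubb3 was 83.5% identical to Tubb2a and 86.0% to Tubb6.

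Each main transcript was cut into all its words of 50 bases, and each word was sought in the transcripts of other genes. Genes that overlap the member were left out of its search. These were Gm20388 for Tubb3, Gm49450 for Tuba1a and Tuba1b, and Gm41396 for Tuba1b. For Tuba1a 64.3% of words occurred in another gene, for Tuba1b 82.2%, for Tuba1c 61.0%, for Tubb2a 49.6% and for Tubb2b 39.3%. For Tubb3 and Tubb6 no word occurred in a gene searched, and for Tubb5 0.115% did. Values of Tubb6 are therefore free of shared words of this length and those of Tubb5 nearly so. For Tubb3 this holds only against the genes searched, because Gm20388, which overlaps it, was left out. Values of the other 5 genes are uncertain to the extent that the authors' counting split or repeated shared reads. The rule which that counting followed for shared reads is unknown.

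The genes lie in a few places of the genome (mm10, GENCODE M21), and each main transcript has 4 exons. Tuba1b (chr15:98931425-98934565, minus strand), Tuba1a (chr15:98949837-98953703, minus strand) and Tuba1c (chr15:99029891-99038110, plus strand) are neighbours, as are Tubb2a (chr13:34074274-34078007) and Tubb2b (chr13:34126748-34130466), both on the minus strand. Tubb5 (chr17:35833921-35838306, minus strand) and Tubb3 (chr8:123411424-123422015, plus strand) stand apart from other members, and Tubb6 is on the plus strand of chromosome 18. Tubb3 lies inside the long readthrough gene Gm20388 on the same strand, which held more estimated reads than Tubb3 in 24 of 24 libraries. The genes Gm49450 and Gm41396, which overlap Tuba1a or Tuba1b, were not analysed here.

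The files give FPKM, that is, counted fragments scaled to gene length in kilobases and to library size. The kilobase term behind the values was the genomic span in the authors' annotation, introns included, for example 9993 bases for Tuba1a and 10592 for Tubb3. FPKM can thus be compared between groups for a gene but not between genes. Library totals recovered from the values ran from 51.4 to 145 M reads (M for mega) with a median of 107, the lowest in injured C57 replicate 3, and 62.9% to 64.8% of reads lay in genes. Per library, Tuba1a had 218919 to 820745 reads and Tubb6, the sparsest member, 1092 to 21687.

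All 8 tubulins rose after crush in all 3 strains. Crush was compared with naive within each strain by limma on log2(FPKM + 1) over 27287 genes, and a gene was called at a Benjamini-Hochberg adjusted p under 0.05. In C57 8 of 8 members were higher, where 18% of all genes tested were called higher. In CAST it was 8 of 8 against 25.5% of all genes. In DBA it was 8 of 8 against 26.1%. The median log2 difference of the 8 members came to 0.70 for C57, 0.74 for CAST and 0.87 for DBA, beside medians over all genes of -0.00023, 0.0015 and 0.0013. For each member the 4 injured libraries of a strain lay above its 4 naive libraries with no overlap. The share of all genes that separate in this way is not given here. P-values here and below measure the spread between libraries labelled as biological replicates.

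**Figure D1:**
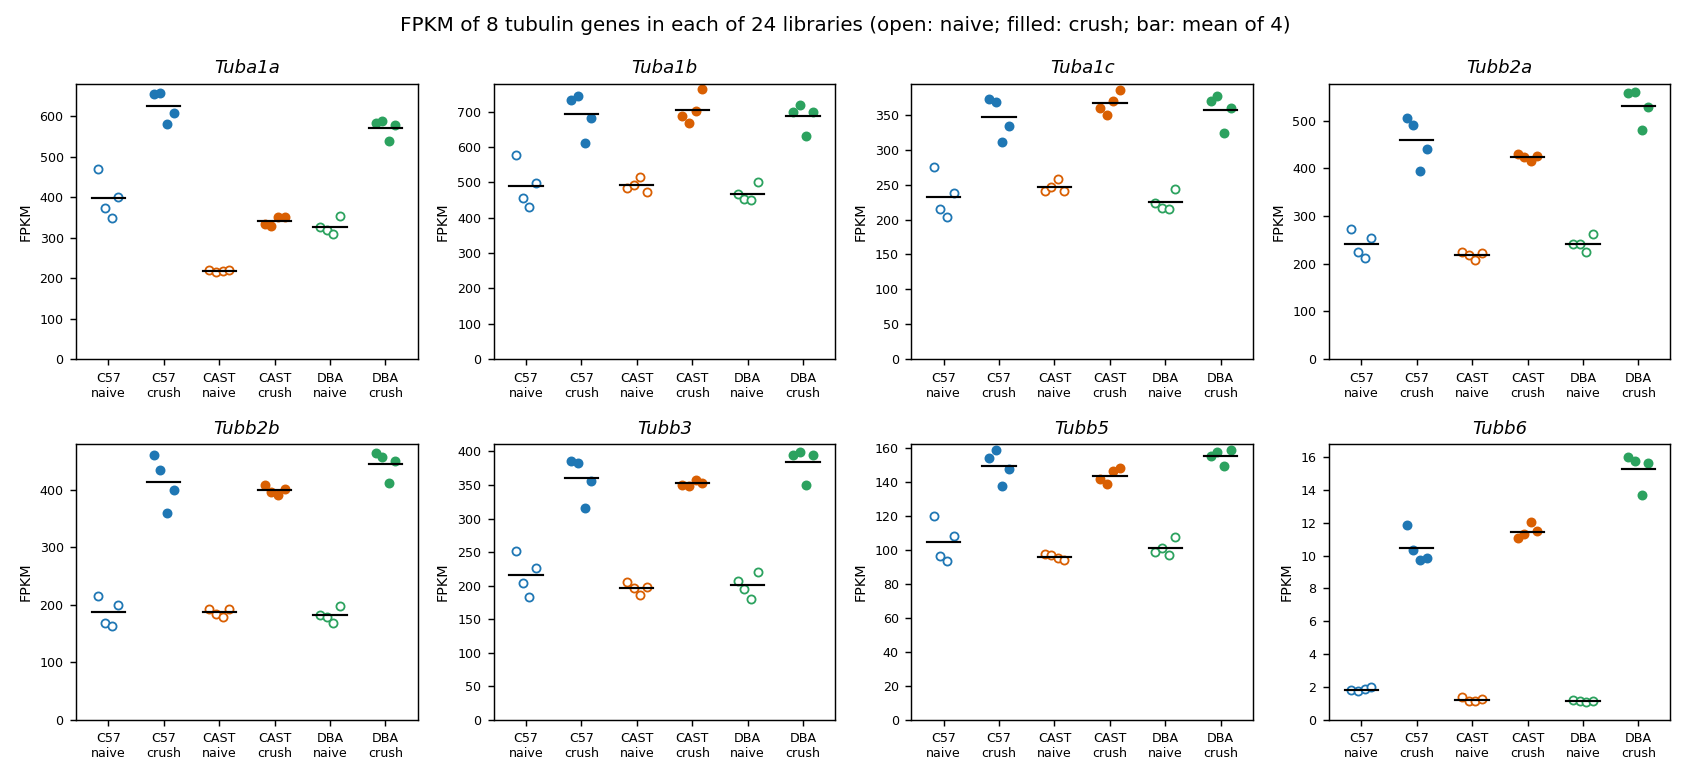
FPKM of each of the 8 tubulin genes (vertical axes, linear and starting at 0, a scale per gene) in every library of the 6 groups; open points are naive, filled points are injured, and bars are the mean of 4 libraries. In every panel the injured points of a strain lie above its naive points, and Tuba1a is lowest in CAST in both states.

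Among the alpha tubulins, Tuba1a is the isotype best known from growing axons. Its FPKM was 469, 374, 349 and 401 in the naive C57 libraries and 655, 659, 581 and 609 in the injured ones. In CAST it was 219.6, 216, 218 and 219 naive and 334, 328, 352 and 352 injured. In DBA it was 327, 319.8, 308 and 354 naive and 583, 589, 539 and 579 injured. Every injured library was above every naive library of its strain, and the naive CAST libraries were the lowest of all 24. The log2 difference was 0.66 ± 0.068 (SE) in C57, 0.64 in CAST and 0.81 in DBA, with limma adjusted p of 1.28e-07, 1.04e-07 and 3.47e-09. These are ratios of mean FPKM of 1.57, 1.57 and 1.75.

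Tuba1b and Tuba1c, the alpha isotypes made by many cell types, moved less. The mean FPKM of Tuba1b was 491 ± 63.8 (SD, n = 4) in naive and 692 ± 61.2 in injured C57, 492 ± 17.9 and 705 ± 40.8 in CAST, with 468 ± 23.6 and 687 ± 37.5 in DBA. Its ratios were 1.41, 1.43 and 1.47, the smallest of the 8 members in each strain. Tuba1c was at 233 ± 31.9 and 347 ± 29.1 in C57, 246 ± 8.32 and 366 ± 15.4 in CAST, with 224 ± 13 and 358 ± 23.1 in DBA, ratios of 1.49, 1.49 and 1.59. The log2 differences of this pair lay between 0.50 and 0.67 with adjusted p of 2.48e-05 or lower by limma.

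Rows of 5 processed pseudogenes with near-identical sequence bear on these alpha values. More than 15% of the 50-base words of at least 1 of the 3 alpha genes occur in 8 other genes, of which Gm3756, Gm6682, Gm14150, Gm5620 and Gm17383 are rows of the table. Processed pseudogenes are copies of a spliced transcript set back into the genome. Gm17383 held 120540 to 423650 estimated reads per library, about the range of Tuba1c. All 5 were called higher after crush in C57, CAST and DBA, with log2 differences of 0.50 to 0.68. The part that reads shared with these rows have in the alpha values was not tested.

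Among the beta tubulins, Tubb2a and Tubb2b, a pair of neighbouring genes whose products are abundant in neurons, had larger differences than the alpha genes in each strain, though differences between genes were not tested. Tubb2a had FPKM values of 273, 225, 212 and 254 in naive C57 and 506, 490.3, 395 and 441 in injured C57. In CAST they were 225, 218, 207 and 222 naive and 430.5, 424, 414 and 427 injured, and in DBA 242, 240.1, 224 and 262 naive and 557, 559.7, 479.7 and 529 injured. Injured and naive libraries did not overlap in any strain, and the injured C57 and DBA libraries were more spread than the injured CAST ones. The log2 differences were 0.92, 0.96 and 1.13 in C57, CAST and DBA (SE 0.079), with limma adjusted p of 8.68e-09, 3.03e-09 and 2.06e-10.

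Tubb2b had FPKM values of 215, 168, 163 and 199.6 in naive C57 and 460.3, 434, 359.8 and 399 after crush. It had 192, 184, 179 and 193 in naive CAST against 409, 396, 389.9 and 402 injured, and 182, 179, 168 and 198 in naive DBA against 464, 456, 411 and 449 injured. The naive levels of the 3 strains overlapped, and so did the injured levels of C57 with those of CAST and of DBA. The ratios of mean FPKM were 2.22, 2.13 and 2.45, the largest among the members after Tubb6, with log2 differences of 1.15, 1.09 and 1.29 and limma adjusted p of 6.45e-10 or lower.

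Reads of Tubb2b per read of Tubb2a were 0.698 ± 0.016 (SD, n = 4) in naive and 0.815 ± 0.010 in injured C57, 0.774 ± 0.0096 and 0.850 ± 0.0058 in CAST, with 0.677 ± 0.0048 and 0.757 ± 0.017 in DBA. The naive and injured ranges did not overlap in any strain. This pair shares 49.6% and 39.3% of its words with other genes, mostly with each other, so a ratio between them is uncertain in size.

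Tubb3, the neuronal beta tubulin, lies within Gm20388, and words shared with that gene were not sought. No word of Tubb3 occurred in any gene searched. Tubb3 had FPKM values of 251, 204, 184 and 227 in naive C57 and 386, 383, 315 and 356 after crush. It had 206, 196, 185 and 197 in naive CAST and 349.7, 349, 358 and 354 after crush, and 207, 195, 179.6 and 220.0 in naive DBA and 394, 399.6, 350.3 and 394 after crush. The strains overlapped in the naive state, and the injured libraries of all 3 lay between 315 and 399.6. The log2 differences were 0.74 ± 0.082 (SE), 0.84 and 0.94 in C57, CAST and DBA, with limma adjusted p of 3.90e-07, 3.60e-08 and 6.64e-09.

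The beta tubulin Tubb5, which most cell types make, had a mean FPKM of 104 ± 11.8 (SD, n = 4) in naive and 149 ± 9.27 in injured C57, 95.8 ± 1.69 and 144 ± 4.36 in CAST, with 101 ± 4.68 and 155 ± 4.30 in DBA. The ratios of 1.43, 1.5 and 1.54 were close to those of Tuba1b and Tuba1c. The log2 differences were 0.52, 0.58 and 0.61 with limma adjusted p of 6.28e-07 or lower.

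Tubb6, a beta isotype made at low level by many tissues, stood apart from the other members in its size of change. Its FPKM was 1.79, 1.77, 1.85 and 1.98 in naive C57, 1.37, 1.13, 1.15 and 1.29 in naive CAST, and 1.2, 1.16, 1.06 and 1.14 in naive DBA. After crush it was 11.8, 10.3, 9.75 and 9.88 in C57, 11.1, 11.3, 12 and 11.5 in CAST, with 16.0, 15.8, 13.7 and 15.6 in DBA. All injured libraries were above all naive ones, and the 4 injured DBA libraries were the highest 4 of the 24. The ratios of mean FPKM were 5.66, 9.30 and 13.4 in C57, CAST and DBA. On the log2(FPKM + 1) scale, which understates changes of low genes, the differences were 2.01, 2.48 and 2.92 (SE 0.054), with limma adjusted p of 4.06e-16, 1.34e-17 and 7.02e-19.

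**Figure D2:**
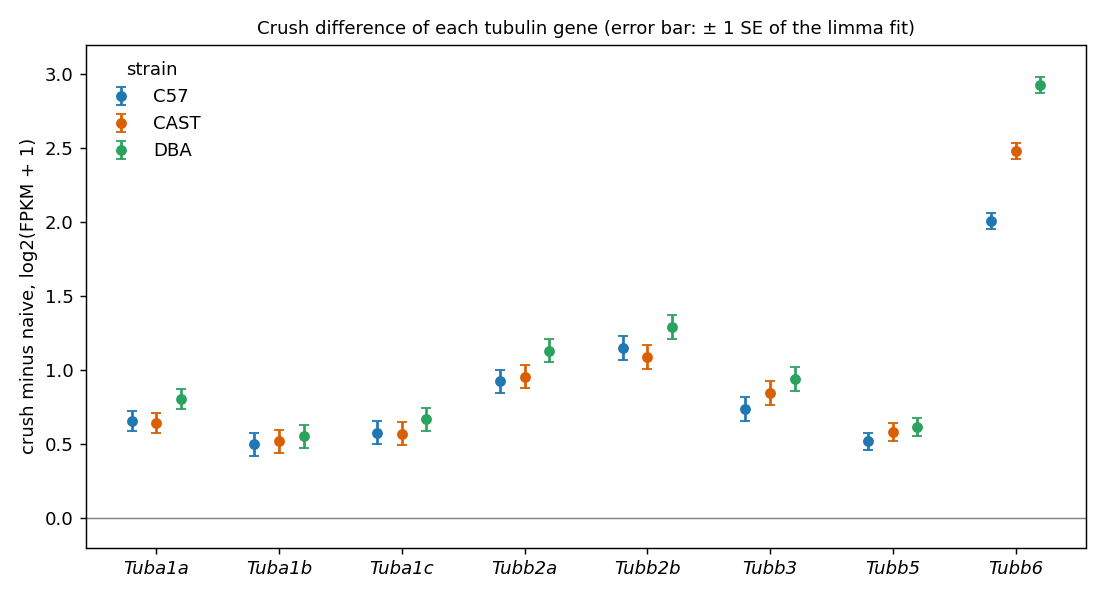
Difference between injured and naive libraries on the log2(FPKM + 1) scale (vertical axis) for each tubulin gene and strain; points are limma estimates from 4 against 4 libraries and error bars are ± 1 SE. Tubb6 lies at 2.01, 2.48 and 2.92 in C57, CAST and DBA, and the other 7 genes lie between 0.50 and 1.29.

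The size of the crush difference was then compared between strains with interaction contrasts. Tubb6 was the 1 member called in each of them. Its response was larger in CAST than in C57 by 0.48 ± 0.076 (SE) on the log2 scale (limma adjusted p = 0.000169), larger in DBA than in C57 by 0.92 (6.65e-08) and smaller in CAST than in DBA, by -0.44 (0.000295). This made 1 of 8 members called in each contrast, where 13%, 8.89% and 15.5% of all genes were called. For the 7 members not called, the differences were -0.06 to 0.11 (CAST minus C57), 0.05 to 0.21 (DBA minus C57) and -0.20 to -0.03 (CAST minus DBA), with adjusted p of 0.298 or higher. The outermost 95% limits of these 7 reached -0.42 and 0.43, so these intervals still hold differences of that size.

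Markers of other cells moved with crush beside the tubulins, and in these bulk samples fewer cells of a type and less RNA per cell cannot be told apart. Marker counts after crush are to be read beside those of all genes. Of all genes, 18%, 25.5% and 26.1% were called higher in C57, CAST and DBA, and 20.3%, 21.3% and 23.6% lower. Of 14 pan-neuronal genes other than tubulins, after crush 9 were called lower and 2 higher in C57, 10 lower and 2 higher in CAST, with 11 lower and 2 higher in DBA. The summed FPKM of this list was 1689 to 1722 in naive and 1114 to 1375 in injured C57, 1769 to 1826 and 1189 to 1294 in CAST, with 1870 to 2049 and 1367 to 1466 in DBA. This sum is mostly that of the 3 neurofilament genes Nefl, Nefm and Nefh, and FPKM of different genes are on different scales. Without them, a split chosen after their values were seen, the other 11 genes summed to 298 to 357 in naive and 303 to 368 in injured C57, 291 to 299 and 296 to 307 in CAST, with 311 to 339 and 310.2 to 332 in DBA, and naive and injured libraries overlapped in each strain. Uchl1 and Prph, also picked after the fact, make up most of this sum. In C57 Uchl1 rose from a mean FPKM of 70.8 to 85.6, and Prph was at 195 naive and 202 injured without a call. Among the rest of the 11 in C57, Elavl3 was called higher, and Rbfox3, Snap25, Syt1, Isl1, Pou4f1 and Scn9a were called lower. Pou4f1, for example, fell from 27.0 to 19.9.

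Of 14 macrophage markers, 14 were called higher in C57, 13 in CAST and 14 in DBA, and their summed FPKM was 6.02 to 7.55 naive and 29.0 to 34.1 injured in C57, 4.93 to 6.09 and 41.5 to 53.1 in CAST, with 6.13 to 7.89 and 36.1 to 40.3 in DBA. Of 10 fibroblast markers 6, 9 and 10 were higher in C57, CAST and DBA, with sums of 20.4 to 26.3, 32.0 to 34.6 and 40.0 to 45.3 in injured ganglia against 11.6 to 19.8, 13.2 to 17.9 and 15 to 23.2 in naive ones. Of 12 markers of dividing cells 8, 10 and 11 were higher, with sums of 1.26 to 1.59, 1.30 to 1.71 and 1.68 to 2.22 injured against 0.975 to 1.14, 0.849 to 0.981 and 0.854 to 1.02 naive. The injured sums of fibroblast markers were highest in DBA, as was Tubb6, those of dividing-cell markers were highest there with some overlap with CAST, and those of macrophage markers were highest in CAST. By the interaction contrasts, 9 of the 12 dividing-cell markers and 3 of the 10 fibroblast markers had a larger difference in DBA than in C57. None had a smaller one, and 8.89% of all genes were called in either direction. Between CAST and C57, where Tubb6 was also called, 0 of the 12 dividing-cell and 1 of the 10 fibroblast markers were called. Of all genes, 13% were called in that contrast. Of the macrophage markers 10 had a larger and 2 a smaller difference in CAST than in C57. No marker of these lists was at 0 in all libraries of a group, and their part in the tubulin values was not tested.

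Of 12 markers of myelinating Schwann cells, 2 were called higher and none lower after crush in C57, 4 higher and none lower in CAST, with 4 higher and 1 lower in DBA, and their summed FPKM overlapped between naive and injured libraries in all 3 strains. Satellite glia markers, 10 in number, were 2 higher and 0 lower in C57, 0 higher and 3 lower in CAST, with 4 higher and 2 lower in DBA. Endothelial markers, also 10, were 0 and 1, 5 and 0, and 4 and 0. In naive DBA ganglia 9 of the 12 Schwann markers were called higher than in C57, where 21.1% of all genes were called in either direction. Levels of this list thus also differed between these strains.

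Strain differences were tested in naive and in injured ganglia. Tuba1a was lower in CAST than in either other strain in both states. In naive ganglia its mean FPKM was 398 ± 51.8 (SD, n = 4) in C57, 327 ± 19.3 in DBA and 218 ± 1.82 in CAST, and the CAST values did not overlap the others. The log2 difference of CAST from C57 was -0.86 ± 0.068 (SE, limma adjusted p = 2.04e-09) and of CAST from DBA -0.58 (5.45e-07). After crush the means were 626, 572 and 341, with differences of -0.87 from C57 (1.44e-09) and -0.74 from DBA (1.50e-08). Injured CAST ganglia, at 328 to 352 FPKM, were thus in the range of naive DBA ganglia at 308 to 354. DBA was also lower than C57 in naive ganglia, by -0.28 (0.00513), with overlapping libraries; this was -0.17 without naive DBA replicate 3, naive C57 replicate 1 and injured C57 replicate 3, and the call was lost when only the compared groups were fitted (adjusted p = 0.108).

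The near-identical pseudogenes went the other way. Of the 5 rows, 4 were called higher in naive CAST than in naive C57 and 4 in injured CAST than in injured C57, and the same counts held against DBA. Gm3756 had FPKM values of 960.4, 745, 709 and 850.0 in naive C57 against 1366, 1327, 1353 and 1386 in naive CAST, a log2 difference of 0.74 (limma adjusted p = 1.63e-07), and Gm6682 differed by 0.67 (1.29e-07). Gm14150 differed by 0.70 (4.95e-08) and Gm5620 by 0.43 (3.29e-05). Gm17383 differed by 0.03 (0.772), and Tuba1b and Tuba1c were not called between any strains. A lower RNA level of Tuba1a in CAST and a different placement of CAST reads among near-identical copies of the reference genome cannot be told apart from these files.

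**Figure D3:**
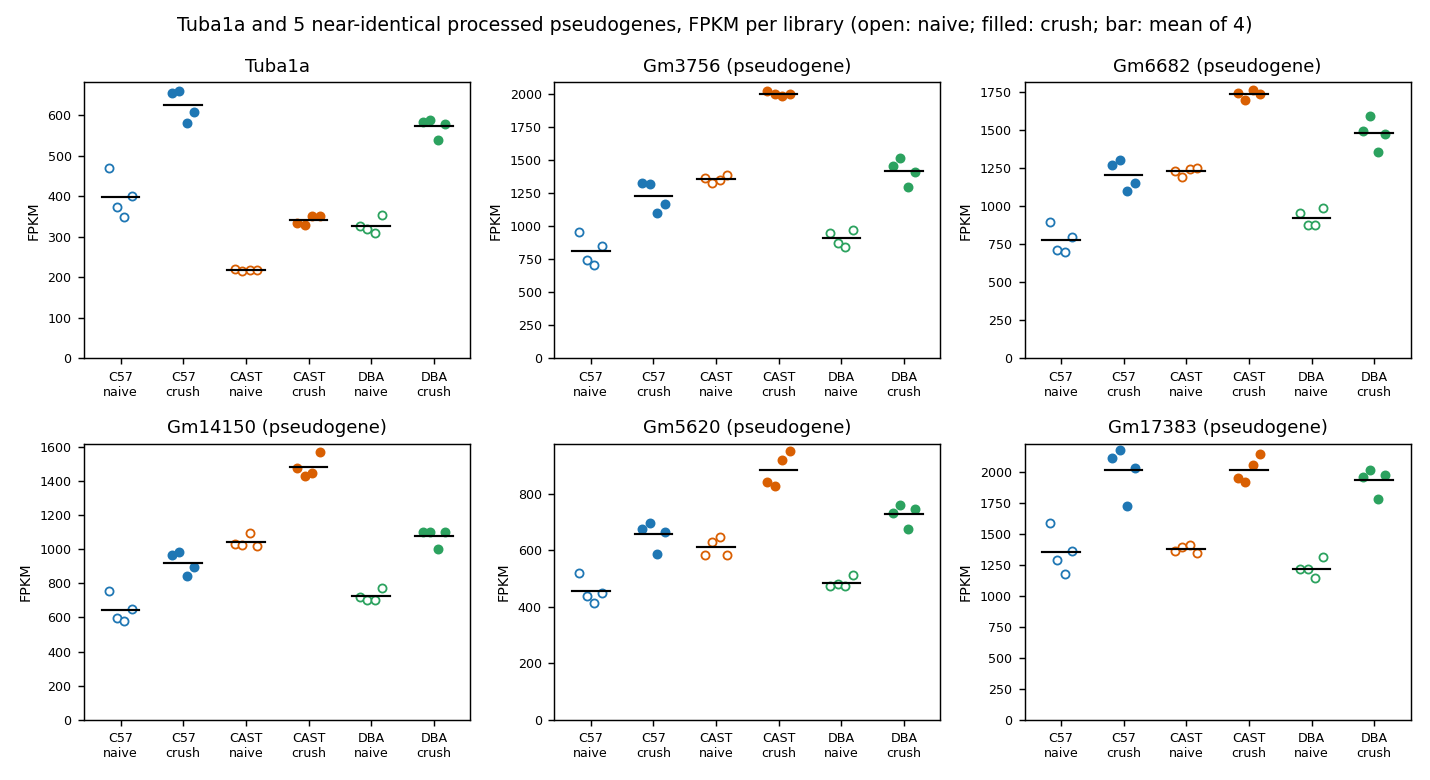
FPKM (vertical axes, linear from 0) of Tuba1a and of 5 near-identical processed pseudogenes in every library; open points are naive, filled points injured, and bars the mean of 4. Tuba1a is lowest in CAST, Gm3756, Gm6682, Gm14150 and Gm5620 are highest there, and Gm17383 differs little between strains.

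Within the alpha genes the same difference showed as a share. Tuba1a took 48.2% ± 0.22 (SD, n = 4) of the reads of the 3 alpha genes in naive C57, 44.4% ± 0.33 in naive DBA and 33.2% ± 0.85 in naive CAST. After crush the shares were 50.4% ± 0.70, 47.9% ± 0.52 and 34.8% ± 0.61. Within each strain the injured shares lay above the naive ones except in CAST, where the ranges of 32.2% to 34.0% and 34.0% to 35.4% met. Reads of Tuba1c per read of Tuba1b moved from 0.811 to 0.857 in C57, 0.857 to 0.889 in CAST and 0.820 to 0.890 in DBA.

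Tubb6 and Tubb2a made up the remaining strain differences. In naive ganglia Tubb6 was lower in CAST than in C57 by -0.35 (limma adjusted p = 1.99e-05) and lower in DBA than in C57 by -0.41 (7.30e-06), with no overlap. After crush it was higher in DBA than in C57 by 0.51 (2.73e-07) and lower in CAST than in DBA by -0.38 (5.88e-06). Injured CAST and C57 were not called apart, at a difference of 0.13 (limma adjusted p = 0.0591) with overlapping libraries. The order of the strains for Tubb6 was therefore C57 above CAST and DBA when naive and DBA above the others when injured. Tubb2a was lower in injured CAST than in injured DBA by -0.32 (0.00197), with no overlap. It was higher in injured DBA than in injured C57 by 0.22 (0.0402), with overlapping libraries, and that call was lost without injured C57 replicate 3 (difference 0.15, adjusted p = 0.163) and under several other settings given in the closing section.

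In counts, 2 of 8 members were called between naive CAST and C57 (43.6% of all genes were), 2 between naive DBA and C57 (21.1%) and 1 between naive CAST and DBA (44%). Between injured groups the counts were 1 for CAST and C57 (48.5%), 2 for DBA and C57 (32.2%) and 3 for CAST and DBA (47.8%). With 8 members, the difference of these counts from the shares of all genes was not tested, and several of the counts move with the processing. Differences of members that were not called lay between -0.15 and 0.14 over the 6 comparisons.

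Levels of different genes were compared on a scale of reads per kilobase of exon in a library of fixed size, from recovered reads and the GENCODE M21 exon length. The spans behind the FPKM differed from GENCODE M21 for some members. They were 9993 against 3867 bases for Tuba1a, 10116 against 4386 for Tubb5 and 4804 against 3141 for Tuba1b. What this mismatch does to the levels, shares and alpha to beta ratios below was not tested. In naive C57 the order was Tuba1a at 2207 ± 287 (SD, n = 4), Tuba1b at 1257 ± 163, Tubb3 at 1227 ± 165, Tuba1c at 836 ± 115, Tubb2a at 555 ± 63.0, Tubb5 at 318 ± 36.0, Tubb2b at 272 ± 36.2 and Tubb6 at 9.11 ± 0.47. The libraries of Tuba1b and Tubb3 overlapped, as did those of Tubb5 and Tubb2b. In naive CAST Tuba1b at 1259 ± 46.0 and Tuba1a at 1209 ± 10.1 overlapped and led, followed by Tubb3 at 1112 ± 47.1. After crush Tubb2b stood above Tubb5 in all 3 strains without overlap, at 603 against 455 in C57, 582 against 437 in CAST and 649 against 472 in DBA.

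After crush Tubb3 was the second-highest member in C57 and DBA, at 2042 ± 186 and 2181 ± 130, and the highest in CAST at 1999 ± 23. In injured C57 it overlapped Tuba1b, and in injured CAST Tuba1a and Tuba1b overlapped each other. Tubb6 stayed the lowest in all 6 groups, at 51.6 in injured C57, 56.6 in injured CAST and 75.4 in injured DBA. The order of the alpha genes on this scale rests on reads that near-identical copies may share.

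**Figure D4:**
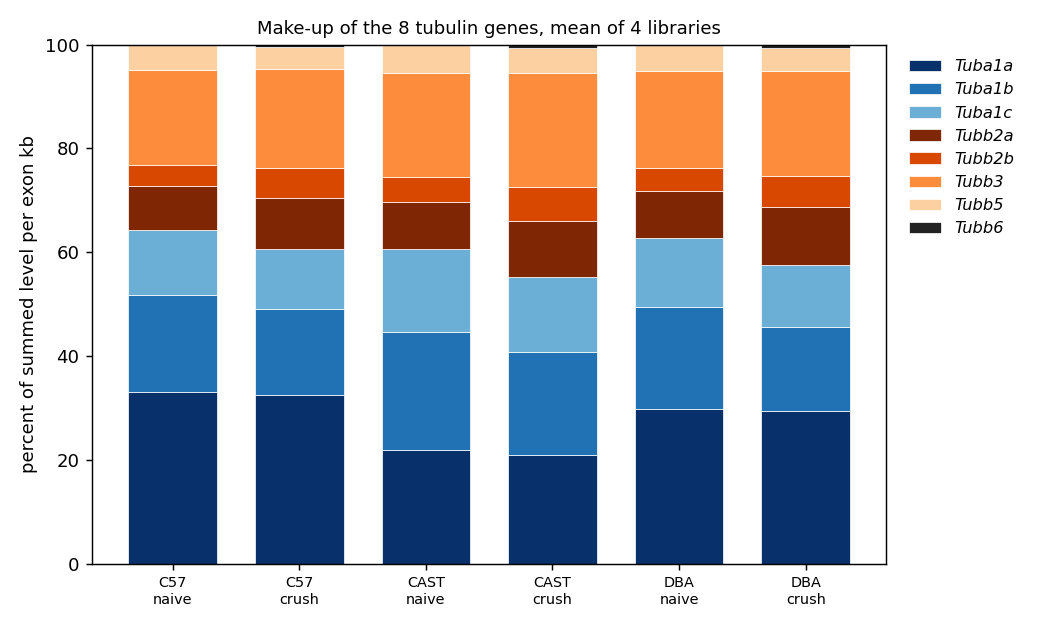
Share of each gene in the summed level of the 8 tubulins (vertical axis, percent, from reads per kilobase of exon) for the 6 groups, as means of 4 libraries. Tuba1a holds 33.0% in naive C57 and 21.8% in naive CAST, and the share of Tubb2a and Tubb2b is larger after crush in each strain.

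As a whole, reads of the 8 genes made up 1.31% ± 0.17 (SD, n = 4) of all reads in naive C57 and 2.10% ± 0.17 in injured C57, 1.11% ± 0.0083 and 1.80% ± 0.050 in CAST, with 1.2% ± 0.073 and 2.12% ± 0.11 in DBA. The summed level of the 3 alpha genes over that of the 5 beta genes was 1.81 ± 0.047 naive and 1.54 ± 0.040 injured in C57, 1.54 ± 0.086 and 1.24 ± 0.046 in CAST, with 1.68 ± 0.044 and 1.35 ± 0.014 in DBA, with no overlap within a strain. Tubb2b made up 4.07% of the summed level in naive and 5.63% in injured C57, 4.93% and 6.43% in CAST, with 4.35% and 6.0% in DBA. Tuba1b made up 18.8% and 16.6% in C57, 22.7% and 19.9% in CAST, with 19.7% and 16.3% in DBA.

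Within a group, members were often highest or lowest in the same library. The share of all genes that do so is not given here. The alpha genes share sequence, as do Tubb2a and Tubb2b, so the members counted below are not separate observations. Naive C57 replicate 1 was the highest of its group for 7 of 8 members, and injured C57 replicate 3, the library with the fewest reads, was the lowest of its group for 8 of 8. Injured DBA replicate 3 was the lowest for 8 of 8, naive DBA replicate 3 for 8 of 8 and naive C57 replicate 3 for 7 of 8. In CAST no library was the highest or lowest of its group for more than 5 members. The 3 libraries left out above for naive Tuba1a had been set apart by earlier results of these data, and without them all 8 members were still called higher after crush in all 3 strains.

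Most of the remaining tubulin genes were not called higher. Of 12 listed, 10 passed the filter. After crush 1 was called higher and 5 lower in C57, 0 higher and 5 lower in CAST, with 1 higher and 7 lower in DBA, with median log2 differences of -0.06, -0.07 and -0.04. Of all genes, 18%, 25.5% and 26.1% were called higher in C57, CAST and DBA, and 20.3%, 21.3% and 23.6% lower, and the counts of the lists that follow are to be read beside these shares. Log2 differences here and in those lists are of log2(FPKM + 1), which understates changes of low genes. The gene called higher was Tubb4a, a neuronal beta isotype singled out here after its values were seen, with a mean FPKM of 82.3 naive and 95.3 injured in C57 (limma adjusted p = 0.0291) and 79.0 and 91.6 in DBA (0.0219), and without a call in CAST at 81.8 and 86.6 (0.385). Tuba4a, an alpha isotype of mature neurons and muscle, fell, with mean FPKM of 64.8 naive and 46.7 injured in C57, 61.0 and 46.8 in CAST, with 66.4 and 46.6 in DBA (limma adjusted p of 1.03e-05, 8.21e-05 and 2.30e-06). Tubg2, a gamma tubulin of the complexes that nucleate microtubules, fell by 0.30, 0.29 and 0.55 on the log2 scale. Tube1, which encodes epsilon tubulin of centrioles, fell by 0.05, 0.11 and 0.05 at mean FPKM of 0.122 to 0.215.

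Genes of the tubulin folding machinery were called in both directions. Of 22 genes for prefoldin, the chaperonin CCT, the tubulin cofactors and Ttc5, 4 were higher and 4 lower in C57 (18.2% each), 6 and 3 in CAST, with 6 and 3 in DBA (27.3% and 13.6% in both). Cct8, a subunit of the chaperonin, rose by 0.17, 0.14 and 0.20 (log2), Tbcc, the cofactor that completes dimer assembly, fell by 0.39, 0.32 and 0.34, and Vbp1, a prefoldin subunit, fell by 0.14, 0.13 and 0.21. Ttc5, singled out after its values were seen because of its part in the feedback, had a mean FPKM of 1.09 in both naive and injured C57, and its limma adjusted p was 0.982, 0.786 and 0.603 in the 3 strains.

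Of 25 enzymes that modify tubulin, 7 were higher and 6 lower in C57 (28% and 24%), 9 and 9 in CAST (36% each), with 7 and 5 in DBA (28% and 20%). Vash2, a carboxypeptidase that removes the terminal tyrosine of alpha tubulin, rose, with mean FPKM of 0.0694 naive and 0.313 injured in C57, 0.0771 and 0.183 in CAST, with 0.105 and 0.349 in DBA. On the log2(FPKM + 1) scale Hdac6, a deacetylase of tubulin, rose by 0.15, 0.43 and 0.17. Ttll7, which adds glutamate chains to tubulin tails, fell by 0.50, 0.45 and 0.69. The ratios of mean FPKM were 1.40, 2.16 and 1.49 for Hdac6 and 0.61, 0.62 and 0.49 for Ttll7.

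Of 23 genes for proteins that bind microtubules or sequester dimers, 11 were higher and 6 lower in C57 (47.8% and 26.1%), 10 and 7 in CAST (43.5% and 30.4%), with 9 and 8 in DBA (39.1% and 34.8%). Stmn2, a stathmin of growth cones that binds free dimers, had a mean FPKM of 25.1 naive and 45.4 injured in C57, 23 and 45.8 in CAST, with 23.8 and 54.3 in DBA. These are ratios of 1.80, 1.99 and 2.28, close to those of Tubb2a at 1.90, 1.94 and 2.20. Its relative Stmn4 had ratios of 8.60, 8.32 and 5.64 from naive means of 0.0920 to 0.146, and Map7d1, a microtubule-binding partner of kinesin, had ratios of 1.95, 1.75 and 2.65.

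Of 21 genes for plus-end, nucleation and severing proteins, 5 were higher and 6 lower in C57 (23.8% and 28.6%), 3 and 6 in CAST (14.3% and 28.6%), with 6 and 7 in DBA (28.6% and 33.3%). Ckap5, a microtubule polymerase, fell by 0.20, 0.17 and 0.26 on the log2(FPKM + 1) scale, with ratios of mean FPKM of 0.70, 0.72 and 0.59. Clip3 fell by 0.17, 0.27 and 0.11, and Fignl2, a relative of the severing enzyme fidgetin, fell by 0.38, 0.18 and 0.17.

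**Figure D5:**
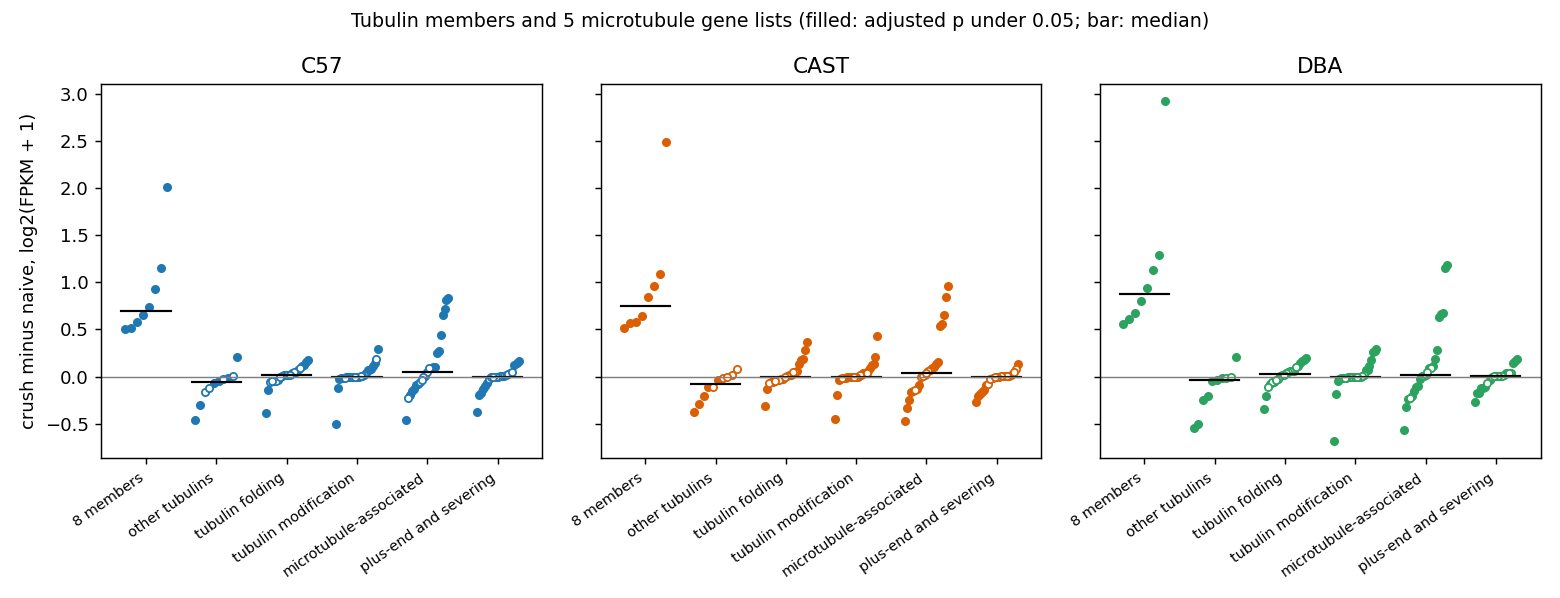
Difference between injured and naive libraries on the log2(FPKM + 1) scale (vertical axis) for the 8 members and for the genes of 5 microtubule lists that passed the filter, per strain; filled points have an adjusted p under 0.05, open points do not, and bars are list medians. All 8 members lie above 0 in each strain, and the other lists spread to both sides of 0.

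The genes nearest in pattern to each member were those with the smallest root mean square difference of centred log2(FPKM + 1) values over the 24 libraries, which share depth and library with the member. For Tubb2a these were Adam8, a membrane protease, and Stmn2, at 0.098 and 0.109; the likeness of Adam8, at a mean FPKM of 0.173 in naive and 1.38 in injured C57, holds on this scale and not for ratios. For Tubb2b they were Jpt1 and the lipid droplet gene Plin2, at 0.092 and 0.102, and for Tubb3 Gm4737 and the chloride channel gene Clic1, at 0.095 and 0.102. For Tubb6 they were Flrt3, which encodes an adhesion protein of axons, and Phlda1, at 0.191 and 0.219, beside a spread of the member itself of 1.25.

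For Tubb5 the nearest genes were Cltb, a clathrin light chain, and Gm17178, at 0.056 and 0.079. Tuba1b and Tuba1c had the tubulin pseudogene Gm17383 as nearest gene, at 0.055 and 0.051, with Taldo1 and Pgk1-rs7 next. Tuba1a had Dhrs1 and Gm14376, at 0.149 and 0.159. Their means were lower in naive CAST than in naive C57, at 4.64 against 7.27 FPKM for Dhrs1 and 0.917 against 1.81 for Gm14376. Both were chosen for nearness to Tuba1a over these same libraries, so this likeness comes with the choice. Among the members themselves, Tuba1b and Tuba1c were nearest to each other at 0.054, and Tubb6 was the farthest member from each of the other 7.

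The promoter table of RefSeq (GRCm38.p6) held 6 of the 8 members. The 250 bases before the start are printed for Tubb2a and Tuba1c, 5′ to 3′ on the strand of the gene. Of the 6, Tubb2a had the largest rise and Tuba1b, not printed, the smallest, with Tuba1c between them. Whether motifs go with the size of the rise was not tested. Capitals mark matches on either strand to the CRE/ATF motif, the TATA motif, the GC box and the CCAAT motif, whose letters are given with their counts after the sequences.
Tubb2a promoter (chr13:34078009-34078258, minus strand): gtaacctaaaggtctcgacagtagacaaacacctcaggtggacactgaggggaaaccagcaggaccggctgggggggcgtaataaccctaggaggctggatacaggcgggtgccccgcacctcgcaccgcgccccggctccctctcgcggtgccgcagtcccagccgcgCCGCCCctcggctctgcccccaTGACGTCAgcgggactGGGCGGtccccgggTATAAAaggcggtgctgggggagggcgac
Tuba1c promoter (chr15:99029641-99029890, plus strand): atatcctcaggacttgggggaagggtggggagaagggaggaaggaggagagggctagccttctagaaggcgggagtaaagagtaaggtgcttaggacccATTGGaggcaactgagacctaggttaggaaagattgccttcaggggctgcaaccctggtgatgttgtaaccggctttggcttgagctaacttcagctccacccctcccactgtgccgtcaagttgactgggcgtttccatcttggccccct

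Tubb2a was the 1 member of the 6 with TGACGTCA, at 59 to 52 bases before the start, and 1.55% of 32851 RefSeq promoters of this length hold it. It was also the 1 member with TATAAA, at 29 to 24 bases before the start, which 12.4% of promoters hold. GGGCGG was present in Tuba1a, Tuba1b, Tubb2a and Tubb3 (32.7% of promoters), and CCAAT in Tuba1a, Tuba1c, Tubb3 and Tubb5 (33.8%). The AP-1 motif TGANTCA was in none of the 6 windows and in 6.75% of all. A match describes letters of the reference sequence and not a bound site.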

How the data were processed

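Total RNA of dorsal root ganglia was extracted with Trizol and sequenced after standard Illumina library preparation, per the labels' protocols. Reads were aligned with STAR 2.3.0 to mm10, per the submitters' processing notes. The authors deposited FPKM values. How they counted, with which tool, on which strand and with what rule for reads matching several genes, is not given in the sources used here. Each of the 24 libraries' own files matched its column of the joint table. The members and the gene lists were chosen with earlier results of these data known.

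Multiplying FPKM by gene span gave whole reads within 0.05 for 67.8% of values worth 0.5 to 100 reads (10% by chance), and so the library totals. For each tubulin gene the length behind its FPKM was found as the one that made its reads whole in all 24 libraries. A filter demanded 10 or more estimated reads in 4 or more libraries (without a known span, FPKM of 0.1 or more) and left 27287 genes. In R 4.3.3, limma 3.58.1 (statmod 1.5.0) fitted the 6 group means to log2(FPKM + 1) of all 24 libraries, with a robust mean-dependent variance, two-sided p-values and Benjamini-Hochberg adjustment within each of 12 contrasts. The step was tested on counts simulated with a fixed spread for the C57 crush contrast alone, and the outcome is not given here. Strain and interaction contrasts were not simulated. Alternatives were another pseudocount, scaling, filter and length, fits of the compared groups only, a replicate block and left-out libraries. Genes named were all members, per list the 3 with the largest mean change called alike in all 3 strains, and per member the 2 nearest in pattern. No protein sequence and no promoter of Tubb2b or Tubb6 was used here. The coding ends of 3 members and the coding start of 1 are not reported here.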

Additional observations from a re-analysis of the deposited data

Results flagged for a closer look

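Tubb3 in injured DBA ganglia had 1 library, replicate 3, at 350.3 FPKM, far from the other 3 at 394, 394 and 399.6. It was 1 of 48 gene and group combinations examined for such a gap, and chance gives about 1 in 20. The same library was the lowest of its group for all 8 members.

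The crush response of Tubb6 differed between strains by the interaction contrasts of limma: by 0.48 (CAST minus C57), 0.92 (DBA minus C57) and -0.44 (CAST minus DBA) on the log2(FPKM + 1) scale. Every injured library was above every naive library in each strain, so the strains differed in size and not in direction. Leaving out each library in turn gave 0.45 to 0.53, 0.88 to 0.98 and -0.49 to -0.41. Naive Tubb6 was also lower in CAST and DBA than in C57, by -0.35 and -0.41, so part of both differences from C57 lies in the naive groups. For CAST it was the larger part. Injured CAST and C57 differed by 0.13 without a call (limma adjusted p = 0.0591), with overlapping libraries. Naive CAST and DBA differed by 0.06 (limma adjusted p = 0.398) with overlapping libraries.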

How the results depend on the processing

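All 8 members were called higher after crush in each strain, and Tubb6 alone was called in each interaction, under every alternative run, the replicate block included; no called difference reversed. The replicate block left 8 members called in each crush contrast and 1 in each interaction. Same-numbered libraries of different groups had a median correlation of 0.039 over 60 pairs, 17 of them above 0.1, so the numbers were not taken to pair libraries.

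The counts between strains were less stable. Between naive CAST and DBA, 2 members were called in place of 1 when only the compared groups were fitted, under the replicate block and without naive DBA replicate 3, naive C57 replicate 1 and injured C57 replicate 3; between naive DBA and C57, 1 in place of 2 when only the compared groups were fitted. Between injured CAST and C57, 2 in place of 1 were called under upper-quartile scaling, under the replicate block and without the 3 libraries. Between injured DBA and C57, 1 in place of 2 was called when only the compared groups were fitted, under upper-quartile scaling and without the filter on low values. Between injured CAST and DBA, 5 in place of 3 were called when only the compared groups were fitted, under upper-quartile scaling and without the 3 libraries. This list leaves out some smaller moves, and a lost and a gained call can cancel in a count. Counting each member and each of these settings, 2 calls were gained for naive CAST and C57 and 7 for injured CAST and DBA. For injured DBA and C57, 4 were lost and 1 gained. Leaving out 1 library at a time gave 2 to 4 members for naive CAST and C57 (4 without naive C57 replicate 3), 1 to 2 for injured CAST and C57 (2 without injured C57 replicate 1) and 1 to 2 for injured DBA and C57 (1 without injured C57 replicate 3 or 4, or injured DBA replicate 1, 2 or 4). The cause was not tested. TMM scaling and voom on estimated reads were planned and run once, then withdrawn and left out of the tables, because count tools were not allowed on FPKM; whole reads were recovered for 67.8% of low values. Both had left the crush and interaction calls as they were, and under both Tubb2a had lost its call between injured DBA and C57. Tubb6 in naive ganglia differed by -0.55 and -0.65 from C57 in CAST and DBA with a pseudocount of 0.1, against -0.35 and -0.41.

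Depth limits Tubb6 most, at 1092 reads in its lowest library. The uncertainty that shared sequence brings to the alpha genes, Tubb2a and Tubb2b, and that Gm20388 brings to Tubb3, was not measured.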
